A study of Homo sapiens with 4 samples.

Results

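The genes described here are 39 genes of the G1/S transition and of DNA replication, taken by name from a table of 37450 features. They were measured by mRNA sequencing in 143B, a human osteosarcoma (bone tumour) cell line, 2 days after lipid-based transfection of small interfering RNA (siRNA). In 2 libraries the cells had received a non-targeting siRNA (siNC, genotype labelled WT), and in 2 libraries an siRNA against CBX3 (siCBX3, genotype labelled CBX3 knockdown). All 39 genes passed the filter on low counts, among 20999 genes tested. How many siRNAs targeted CBX3, and with which sequences, is not given in the sources used here. All 4 libraries came from 1 cell line, and no label states that replicates are independent cultures. The p-values therefore measure only the spread between these libraries, which may be technical.

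Cells commit to a new round of DNA synthesis when cyclin E with its kinase CDK2 releases E2F transcription factors from the retinoblastoma family of pocket proteins. Before that point, ORC, CDC6 and CDT1 load the MCM2-7 ring onto origins, which is called licensing. At S phase the ring is joined by CDC45 and the GINS complex to form the CMG helicase, and DNA polymerases, the PCNA clamp and nucleotide-making enzymes follow. Many genes of these steps are textbook E2F targets, and their transcripts are most abundant around the G1/S boundary of cycling cells. HP1γ, the product of CBX3, is a reader of methylated histone H3 in chromatin.

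Library totals lay between 36509298 and 40336907 counts, and single members had between 129 and 26616 counts in a library. CBX3 itself stood at 116 and 109 RPKM in siNC and at 12.3 and 12.3 in siCBX3, a log2 fold change of -3.19 (SE 0.08, adjusted p 2.73e-20, edgeR quasi-likelihood test). RPKM is the read count per kilobase of exon relative to library size, here scaled with edgeR's TMM factors, and CPM below is the count relative to the library total without division by length. The mesenchymal markers VIM, COL1A1, COL1A2 and SPARC had between 8.95 and 1720 CPM, and their sum was 1042 to 1111 CPM in siNC and 3071 to 3114 in siCBX3. That sum was carried by SPARC (361 and 297 against 1720 and 1648 CPM) and VIM (658 and 791 against 1366 and 1395). COL1A1 was at 13.7 and 14.0 against 17.7 and 17.8, and COL1A2 at 8.95 and 9.07 against 10.2 and 9.92. Each of these markers was higher in both siCBX3 libraries than in both siNC libraries. Of 2 osteoblast markers, RUNX2 was detected in all 4 libraries (4.48 and 4.64 CPM in siNC, 5.42 and 5.89 in siCBX3) and the bone enzyme gene ALPL had at most 4 counts in any library. The sum of 4 epithelial markers lay between 14.6 and 15.0 CPM in siNC and between 9.62 and 10.4 in siCBX3, nearly all from EPCAM. Those of 4 leukocyte markers were 7.18 to 7.64 and 3.89 to 4.67, mostly from ITGAX, with PTPRC at 0.482 or less, and those of 4 endothelial markers 1.99 to 2.06 and 1.42 to 1.45. Their part in the results was not tested.

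The replication genes were lower after CBX3 depletion at nearly every step of the pathway, by amounts that in the called genes left between 45.3% (E2F8) and 86.9% (RRM1) of the siNC level. Of the 39 genes, 30 fell (76.9%) and 0 rose, where a call is a Benjamini-Hochberg adjusted p under 0.05 over all genes tested in edgeR. Over all genes, 24.0% were called lower and 24.4% higher. The members were chosen with earlier results of these data known, so this contrast is a description and not a test. At an unadjusted p under 0.05 the counts were 32 lower and 0 higher, and no alternative fit, DESeq2 and limma-voom included, called a member higher. The median log2 fold change of the members was -0.54, against -0.01 over all genes tested, and 38 of 39 values were below 0. The strongest fall was that of E2F8 (-1.14) and the only value above 0 that of E2F1 (0.06). In 34 of the 39 genes both siCBX3 libraries lay below both siNC libraries, a pattern that 37.4% of all genes tested had. Summed over the 39 genes, the level was 3810 and 3960 CPM for siNC and 2499 and 2609 CPM for siCBX3, so the sum in siCBX3 was 0.657 times that in siNC. In bulk RNA, fewer cells in S phase and less of these transcripts per cell cannot be told apart.

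**Figure D1:**
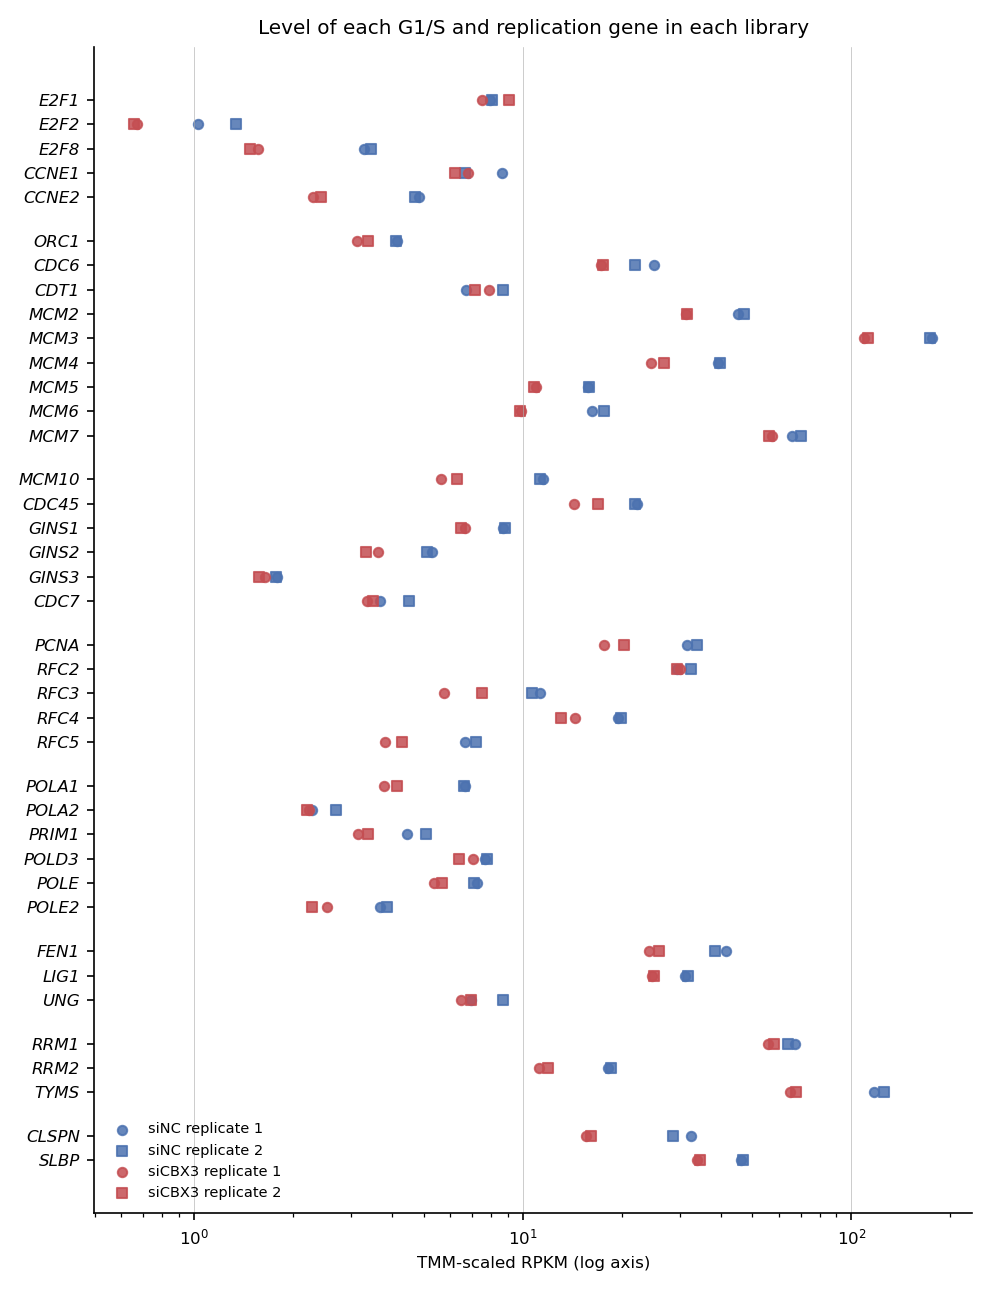
Level of each of the 39 genes in each library, in TMM-scaled RPKM on a log axis, grouped by role; circles are replicate 1, squares replicate 2, blue siNC and red siCBX3. In 34 genes both red points lie left of both blue points, and for E2F1, CCNE1, CDT1, RFC2 and UNG the groups overlap.

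**Figure D2:**
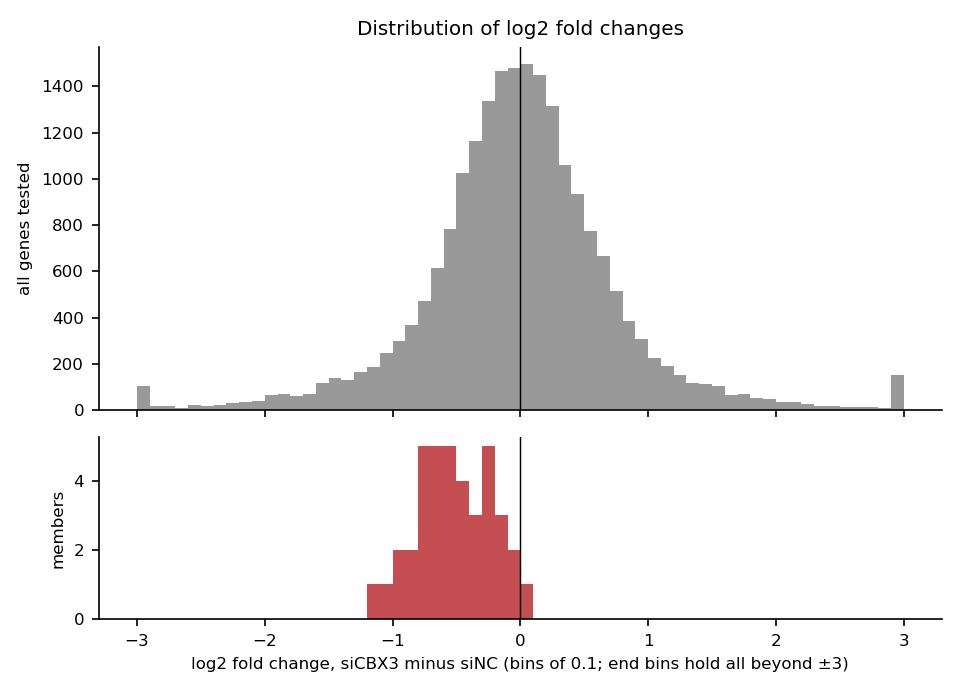
Number of genes in bins of 0.1 of the log2 fold change (siCBX3 minus siNC), for all 20999 genes tested (upper panel) and the 39 members (lower panel); the end bins of the upper panel hold all genes beyond them. The members lie between -1.14 and 0.06, to the left of the centre of the upper panel.

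Promoters of the members are shown because many of these genes are textbook E2F targets. The members were chosen by name, so a high share of E2F words among them describes the list and not its change. RefSeq's promoter table (GRCh38.p14) held 34 of the 39 genes, each with 250 bases before the gene's start and 50 after it. E2F words were searched on both strands in the spellings TTTCCCGC, TTTCGCGC, TTTGCCGC and TTTGGCGC. At least 1 such word stood in 20 of the 34 promoters (58.8%), in 908 of 27305 promoters of the whole table (3.33%) and in 566 of 11590 promoters of tested genes other than the members (4.88%). In the windows below, capitals mark the words, overlapping ones included, and every line reads 5′ to 3′ on the gene's strand.
E2F1 (chr20:33686394-33686423, minus strand): ctttcGCGGCAAAaaggaTTTGGCGCgtaa
CDT1 (chr16:88803743-88803772, plus strand): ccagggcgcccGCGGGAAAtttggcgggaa
MCM2 (chr3:127598404-127598433, plus strand): tgaaccactTTTCGCGCGAAAcctggttgt
MCM3 (chr6:52284728-52284757, minus strand): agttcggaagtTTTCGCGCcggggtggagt
MCM6 (chr2:135876513-135876542, minus strand): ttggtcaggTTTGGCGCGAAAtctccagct
MCM7 (chr7:100101388-100101417, minus strand): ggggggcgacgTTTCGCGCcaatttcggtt
PCNA (chr20:5126663-5126692, minus strand): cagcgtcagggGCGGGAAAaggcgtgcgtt
POLA1 (chrX:24693770-24693799, plus strand): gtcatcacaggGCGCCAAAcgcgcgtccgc
TYMS (chr18:657603-657632, plus strand): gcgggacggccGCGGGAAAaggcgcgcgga
CLSPN (chr1:35769965-35769994, minus strand): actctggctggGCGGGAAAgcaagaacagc

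These windows span members that fell strongly (CLSPN, TYMS, PCNA, MCM6), 1 that fell little (MCM7) and 2 that were not called (E2F1, CDT1). In MCM2 and in MCM6 2 words on opposite strands overlap in 1 stretch, and the MCM6 promoter holds a second such stretch further upstream, which makes 4 words in all. Called and uncalled members both held words, and whether the 2 groups differ in this was not tested. Of 20 members with a word 16 fell (80.0%), of 14 without one 10 fell (71.4%), and the 8 uncalled members with a listed promoter divided into 4 with a word (E2F1, CDT1, GINS3, POLA2) and 4 without (CCNE1, CDC7, RFC2, UNG). Among tested genes other than the members, 199 of 566 with an E2F word were called lower (35.2%) and 122 higher (21.6%). Without the word 3026 of 11024 were called lower (27.4%) and 3064 higher (27.8%). The word CCAAT, the core of the NF-Y site, stood in 55.9% of the members' promoters and 36.1% of those of all tested genes. The GC box GGGCGG stood in 70.6% and 67.6%, the CHR words TTTGAA or TTCGAA in 5.88% and 11.3%, and TATAAA in 2.94% and 6.20%. A match of letters is a description and does not show binding.

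Among the transcription factors and cyclins that open S phase, 3 of 5 genes fell, and close relatives differed. E2F8, an atypical E2F that represses E2F targets, stood at 3.28 and 3.45 RPKM in siNC and at 1.57 and 1.48 in siCBX3 (-1.14 on the log2 scale, SE 0.12, adjusted p 4.68e-08, edgeR). The activator E2F2 was the lowest of the 39 genes, at 1.03 and 1.34 RPKM in siNC and 0.671 and 0.658 in siCBX3, and fell by 0.84 on the log2 scale (SE 0.17, adjusted p 0.000236, edgeR). The activator E2F1 was at 7.93 and 8.04 RPKM in siNC and at 7.50 and 9.10 in siCBX3, so its groups overlapped (log2 fold change 0.06, SE 0.10, adjusted p 0.686, edgeR). Its value was negative, between -0.09 and -0.02, with library totals, on the deposited RPKM with either pseudocount and without siCBX3 replicate 2.

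The cyclin E genes, whose products activate CDK2, differed in the same way. CCNE2 was at 4.84 and 4.71 RPKM in siNC and at 2.30 and 2.44 in siCBX3, a fall of 1.01 on the log2 scale (SE 0.11, adjusted p 2.71e-08, edgeR). CCNE1 was at 8.62 and 6.67 RPKM in siNC and 6.83 and 6.23 in siCBX3, and was not called (-0.23, SE 0.12, adjusted p 0.109, edgeR). Without siNC replicate 2, the lower of the siNC libraries, CCNE1 was called at -0.40 (adjusted p 0.00320, edgeR), as it was with library totals (-0.30, adjusted p 0.0335). The ratio of CCNE1 to CCNE2, which no scaling of libraries changes, was 1.78 and 1.42 in siNC and 2.97 and 2.55 in siCBX3. The ratio of E2F1 to E2F8 was 2.42 and 2.33 against 4.78 and 6.15. Ratios are given with no test, since with 2 libraries against 2 an exact two-sided permutation test cannot go below 0.333. CCNE2 shares 37.1% of its exon bases with INTS8 on the opposite strand, whose own log2 fold change was -0.03 (SE 0.09).

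In origin licensing 8 of 9 genes fell, and the exception was CDT1. ORC1, the subunit of the origin recognition complex whose level follows the cell cycle, was at 4.13 and 4.12 RPKM in siNC and 3.12 and 3.38 in siCBX3 (-0.34, SE 0.12, adjusted p 0.0170, edgeR). Its call ended without siCBX3 replicate 1 (adjusted p 0.129) and with DESeq2 (adjusted p 0.0641). The loader CDC6 was at 25.1 and 21.9 RPKM in siNC and at 17.3 and 17.5 in siCBX3 (-0.44, SE 0.08, adjusted p 6.69e-05, edgeR). CDT1, which brings the MCM ring to the origin, was at 6.71 and 8.68 RPKM in siNC and 7.87 and 7.16 in siCBX3, with both siCBX3 values inside the siNC range (-0.04, SE 0.11, adjusted p 0.803, edgeR). Its value was 0.16 without siNC replicate 2 and 0.03 without siCBX3 replicate 2. Geminin, the protein that inhibits CDT1, is encoded by GMNN, which fell by 0.44 (SE 0.09, adjusted p 0.000161, edgeR). CDT1 to GMNN ratios of 0.417 and 0.560 in siNC stood beside 0.687 and 0.605 in siCBX3.

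The 6 genes of the MCM2-7 ring all fell, and MCM7 fell least. MCM3 was the most abundant of the 39 genes per length, at 176 and 173 RPKM in siNC and 109 and 112 in siCBX3 (-0.66, SE 0.07, adjusted p 4.11e-08, edgeR). MCM6 had the strongest fall in the ring, from 16.2 and 17.7 RPKM to 9.91 and 9.83 (-0.78, SE 0.08, adjusted p 2.27e-08, edgeR). MCM2 went from 45.3 and 47.2 to 31.3 and 31.7 RPKM, a log2 fold change of -0.55. These 3 subunits therefore kept clearly separate levels between groups, with replicates close to each other.

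MCM4 went from 39.3 and 39.7 to 24.6 and 26.9 RPKM (-0.62) and MCM5 from 15.8 and 15.9 to 11.0 and 10.8 RPKM (-0.54). MCM7 was at 65.8 and 70.1 RPKM in siNC and 57.3 and 56.2 in siCBX3, a smaller fall of 0.26 (SE 0.07, adjusted p 0.00436, edgeR), and its call ended without siCBX3 replicate 2 (adjusted p 0.0698). The ratio of MCM7 to the mean of MCM2 to MCM6 was 1.12 and 1.19 in siNC and 1.55 and 1.47 in siCBX3. MCM7 shares 8.94% of its exon bases with AP4M1 on the opposite strand, which had 6.99% as many counts as MCM7. Levels per length across the ring, from 15.8 (MCM5) to 175 RPKM (MCM3) as siNC means, rest on the summed exon length of each gene in the table, which was 7338 bases for MCM5 and 3650 for MCM3.

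**Figure D3:**
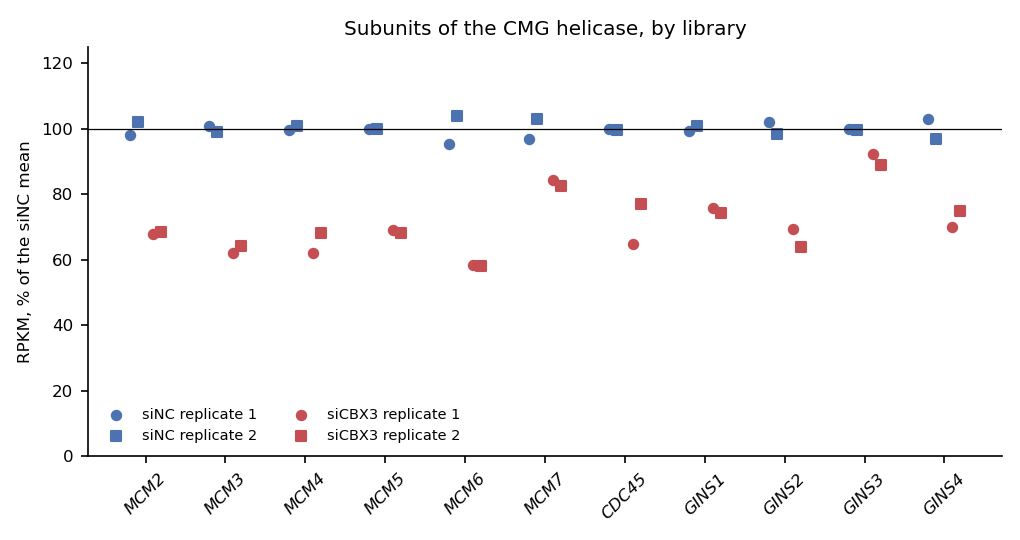
RPKM of each CMG helicase gene in each library, as a percentage of the siNC mean of that gene; circles are replicate 1, squares replicate 2, blue siNC and red siCBX3, and GINS4 is added from the list of other replication genes. MCM7 and GINS3 lie nearest to the line at 100 among the red points.

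Helicase activation genes fell in 4 of 6 cases. MCM10, which helps to switch the loaded ring on, fell from 11.5 and 11.3 RPKM to 5.62 and 6.31 (-0.93, SE 0.09, adjusted p 2.21e-09, edgeR). CDC45 was at 22.2 and 22.0 RPKM in siNC and 14.3 and 17.0 in siCBX3 (-0.50, SE 0.09, adjusted p 4.19e-05, edgeR). Of the GINS subunits, GINS1 was at 8.70 and 8.81 RPKM in siNC and at 6.65 and 6.51 in siCBX3 (-0.41), and GINS2 at 5.29 and 5.12 and at 3.62 and 3.33 (-0.58). Both fell, with adjusted p 0.000357 and 9.99e-05 (edgeR).

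GINS3 was the lowest of the GINS subunits, at 1.79 and 1.77 RPKM in siNC and 1.64 and 1.58 in siCBX3, and was not called (-0.14, SE 0.13, adjusted p 0.381, edgeR). It shares 10.9% of its exon bases with a transcript on the opposite strand, RP11-481J2.3. GINS4, the remaining subunit, fell by 0.47 (SE 0.09, adjusted p 0.000237, edgeR) and shares 23.6% of its exon bases with other features. CDC7, the kinase that phosphorylates the MCM ring, was at 3.68 and 4.50 RPKM in siNC and 3.36 and 3.50 in siCBX3 (-0.26, SE 0.12, adjusted p 0.0767, edgeR). Without siNC replicate 1 CDC7 was called (-0.39, adjusted p 0.00885), as it was with library totals (adjusted p 0.0293) and upper-quartile scaling (0.0363). Its activating subunit DBF4 went from 6.68 and 6.90 to 3.57 and 3.95 RPKM (-0.85, SE 0.10, adjusted p 6.88e-08, edgeR).

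The sliding clamp and most of its loader fell. PCNA, the ring that tethers polymerases to DNA, was at 31.7 and 33.8 RPKM in siNC and 17.7 and 20.3 in siCBX3 (-0.79, SE 0.09, adjusted p 8.92e-08, edgeR). Among the loader subunits RFC3 went from 11.3 and 10.7 to 5.74 and 7.51 RPKM (-0.73), RFC4 from 19.5 and 19.9 to 14.4 and 13.1 (-0.52) and RFC5 from 6.66 and 7.22 to 3.82 and 4.29 (-0.77). The largest subunit, RFC1, also fell (-0.70, SE 0.08, adjusted p 9.73e-08, edgeR). RFC2 was at 29.4 and 32.4 RPKM in siNC and 30.1 and 29.4 in siCBX3, with groups that overlap (-0.06, SE 0.08, adjusted p 0.598, edgeR). Without siNC replicate 2 its value was 0.02. RFC2 to the mean of RFC3 to RFC5 gave ratios of 2.35 and 2.57 in siNC and 3.76 and 3.54 in siCBX3. RFC5 shares 10.6% of its exon bases with WSB2 (log2 fold change 0.30) and RP11-33N14.3 (-0.85), both on the opposite strand.

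The 2 polymerase alpha subunits had unlike fold changes, while those of the 2 primase subunits were closer. Whether subunits differ in their change was not tested. POLA1, the catalytic subunit of polymerase alpha that starts each strand with primase, was at 6.69 and 6.63 RPKM in siNC and 3.79 and 4.15 in siCBX3 (-0.75, SE 0.09, adjusted p 1.64e-07, edgeR). Its accessory subunit POLA2 was at 2.29 and 2.71 in siNC and 2.23 and 2.21 in siCBX3 and was not called (-0.17, SE 0.11, adjusted p 0.221, edgeR). POLA2 to POLA1 ratios of 0.343 and 0.409 in siNC stood beside 0.590 and 0.532 in siCBX3. The primase subunit PRIM1 fell from 4.44 and 5.06 to 3.15 and 3.39 RPKM (-0.54, SE 0.13, adjusted p 0.00107, edgeR). PRIM1 shares 6.77% of its exon bases with HSD17B6 on the opposite strand (log2 fold change 0.18) and NACA on the same strand (0.01). NACA had 127805 counts over the libraries, against 1511 for PRIM1. PRIM2 fell by 0.62 (adjusted p 0.00341), a call that ended without siCBX3 replicate 2 (-0.42, adjusted p 0.0899, edgeR).

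Polymerase epsilon, which copies the leading strand, fell in both tested members. POLE, its catalytic subunit, went from 7.26 and 7.10 to 5.36 and 5.68 RPKM (-0.38, SE 0.07, adjusted p 0.000172, edgeR) and POLE2 from 3.67 and 3.87 to 2.54 and 2.28 (-0.65, SE 0.13, adjusted p 0.000188, edgeR). The small subunit POLE3, also part of the CHRAC remodelling complex, went from 89.7 and 85.6 to 17.6 and 18.1 RPKM (-2.30, SE 0.08, adjusted p 1.39e-17, edgeR). POLE4 was at -0.37 (adjusted p 0.0169), a call that ended without siNC replicate 2 (adjusted p 0.189) and without siCBX3 replicate 1 (adjusted p 0.312, edgeR). It also ended with DESeq2 (adjusted p 0.0583) and on the deposited RPKM plus 1 (0.103) or plus 0.1 (0.0982).

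Polymerase delta, which copies the lagging strand, moved in both directions. POLD3, a structural subunit, was at 7.70 and 7.78 RPKM in siNC and 7.07 and 6.42 in siCBX3, which missed the threshold (-0.20, SE 0.09, adjusted p 0.0580, edgeR). It was called in 6 of 14 alternatives, library totals among them (-0.28, adjusted p 0.0116). The catalytic POLD1 was at -0.12 (adjusted p 0.183, and 0.0324 with library totals), and POLD2 fell by 0.33 (adjusted p 0.00148, edgeR). POLD4, the smallest subunit, rose from 3.46 and 4.28 to 12.8 and 11.2 RPKM (1.63, SE 0.11, adjusted p 7.78e-12, edgeR); it shares 21.3% of its exon bases with other features.

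Enzymes that join lagging-strand fragments fell. FEN1, the nuclease that trims their 5′ flaps, was at 41.5 and 38.4 RPKM in siNC and 24.3 and 26.0 in siCBX3 (-0.67, SE 0.08, adjusted p 1.72e-07, edgeR). LIG1, the ligase that seals them, went from 31.1 and 31.8 to 24.8 and 25.1 RPKM (-0.33, SE 0.07, adjusted p 0.000468, edgeR). FEN1 shares 8.68% of its exon bases with TMEM258 on the opposite strand (log2 fold change -0.14) and FADS2 on the same strand (0.08). UNG, which removes uracil from DNA, was at 6.96 and 8.71 in siNC and 6.50 and 6.97 in siCBX3 and was not called (-0.22, SE 0.11, adjusted p 0.104, edgeR). Without siNC replicate 1 UNG was called (-0.37, adjusted p 0.00519), as it was with library totals (adjusted p 0.0397) and upper-quartile scaling (0.0481).

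All 3 members that supply deoxynucleotides fell, by different amounts. TYMS, which makes thymidylate, was the second most abundant of the 39 per length, at 117 and 126 RPKM in siNC and 64.9 and 67.7 in siCBX3 (-0.88, SE 0.07, adjusted p 6.05e-10, edgeR). It shares 26.2% of its exon bases with ENOSF1 (-0.33) and TYMSOS (-0.98) on the opposite strand. RRM2, the ribonucleotide reductase subunit whose level follows S phase, went from 18.2 and 18.6 to 11.2 and 11.9 RPKM (-0.67, SE 0.08, adjusted p 1.24e-07, edgeR). RRM1, the large subunit of the same enzyme, went from 67.5 and 64.0 to 55.9 and 58.3 RPKM, a smaller difference (-0.20, SE 0.07, adjusted p 0.0235, edgeR). The call of RRM1 ended without siNC replicate 1 (adjusted p 0.0531), siCBX3 replicate 1 (0.224) or siCBX3 replicate 2 (0.0888). RRM1 to RRM2 ratios of 3.70 and 3.44 in siNC stood beside 5.01 and 4.88 in siCBX3.

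CLSPN and SLBP complete the list. CLSPN encodes claspin, which travels with the fork and passes the ATR checkpoint signal to CHK1. It had the smallest adjusted p of the 39 genes and was at 32.6 and 28.6 RPKM in siNC and 15.6 and 16.1 in siCBX3 (-0.95, SE 0.08, adjusted p 4.39e-10, edgeR). SLBP, which binds the stem-loop of replication-dependent histone mRNAs, fell from 46.1 and 46.8 to 33.8 and 34.7 RPKM (-0.44, SE 0.08, adjusted p 3.52e-05, edgeR).

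**Figure D4:**
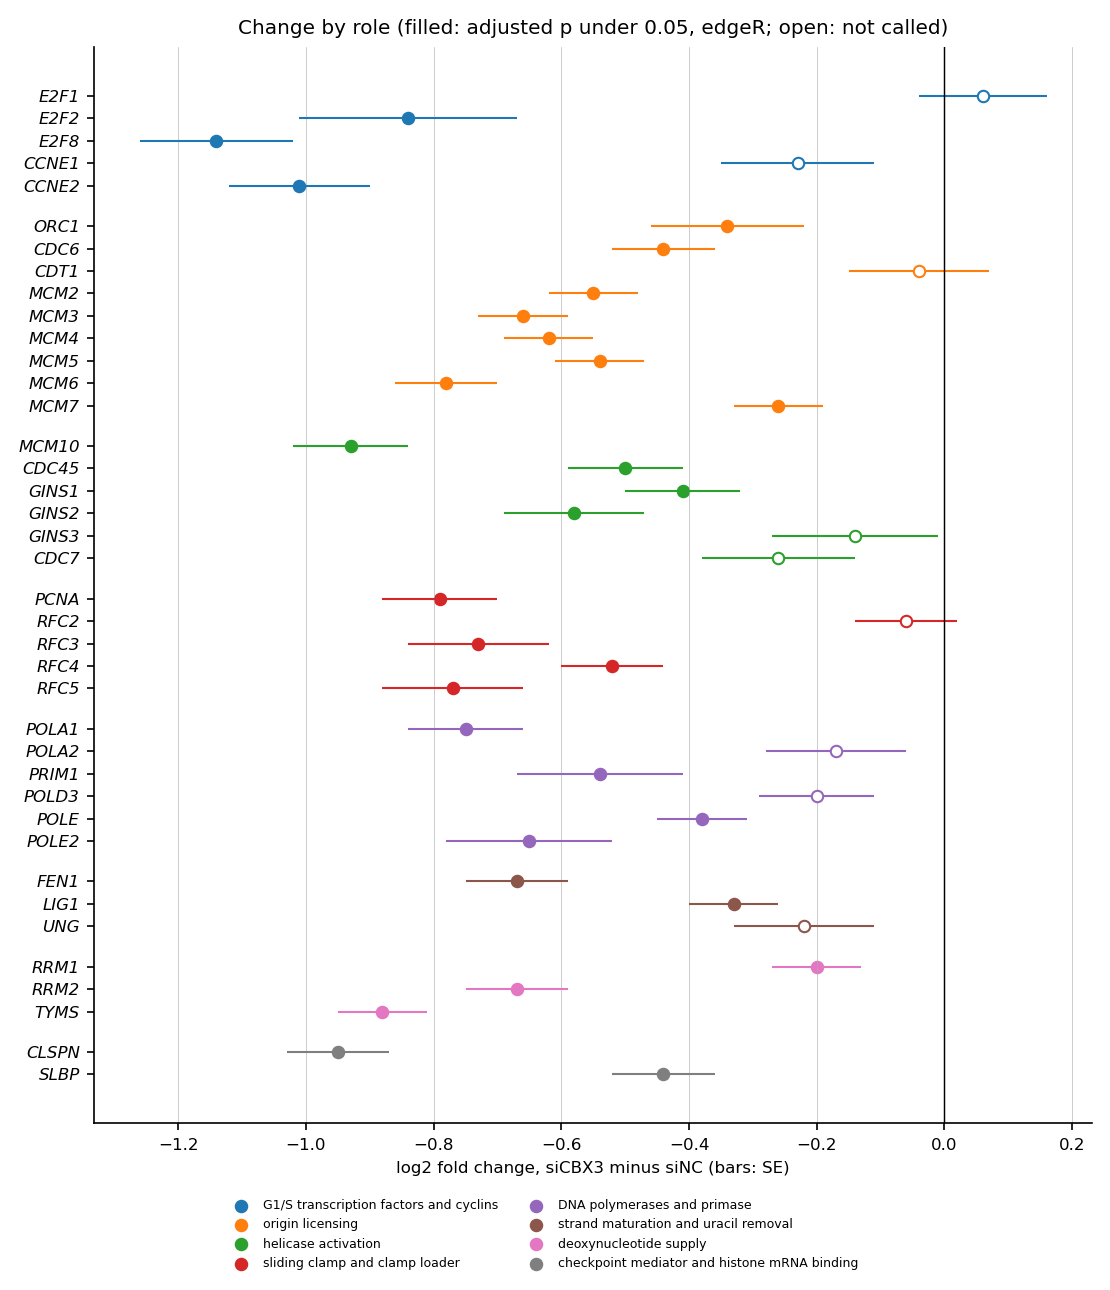
Log2 fold change of each of the 39 genes (siCBX3 minus siNC, bars 1 SE), coloured by role; filled points passed an adjusted p under 0.05 in edgeR and open points did not. The 9 open points are E2F1, CCNE1, CDT1, GINS3, CDC7, RFC2, POLA2, POLD3 and UNG, and E2F8 and CCNE2 lie furthest to the left.

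Shared sequence touches some of these values. No exon base is in common with another feature in 24 of the 39 genes, and of those 17 fell and 0 rose, with a median log2 fold change of -0.47. Of the 15 that share exon bases 13 fell and 0 rose (median -0.55). The sources used here do not give the strand setting of the counting, so reads of overlapping genes cannot be assigned with certainty. The members lie on 19 chromosomes. Their log2 fold changes showed no trend with level in siNC (Spearman -0.06 across 39 genes from the same 4 libraries) or with exon length (-0.06).

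Other genes of the pathway, from lists that hold none of the 39, included some that rose. Among 41 other replisome and origin subunits 25 fell (61.0%) and 2 rose (4.88%), with a median log2 fold change of -0.33. All genes tested had shares of 24.0% lower and 24.4% higher. RPA2, of the single-strand binding complex, fell from 13.2 and 13.4 to 5.58 and 5.07 RPKM (-1.32, adjusted p 1.45e-10, edgeR), and TOP2A, the topoisomerase that untangles sister strands, fell by 0.89. Beside POLD4, CHTF8 of the alternative clamp loader rose (0.39, adjusted p 0.00220, edgeR), a call that ended on the deposited RPKM plus 1 (adjusted p 0.102) or plus 0.1 (0.0983). Of the remaining ORC subunits ORC5 (-0.55) and ORC6 (-0.31) fell, while ORC2 (-0.12), ORC3 (-0.24) and ORC4 (-0.21) did not pass; ORC6 was not called without siCBX3 replicate 1 (adjusted p 0.158, edgeR). ORC3 was called with library totals (adjusted p 0.0325) and upper-quartile scaling (0.0478), and ORC4 with library totals (0.0351) and without siNC replicate 1 (0.0411).

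Among E2F partners and pocket proteins 7 of 16 were called lower (43.8%) and 3 higher (18.8%), with a median of -0.09. All genes tested had shares of 24.0% lower and 24.4% higher. TFDP1, the dimerization partner of E2F1 to E2F6, fell from 16.8 and 17.3 to 6.89 and 6.52 RPKM (-1.35, SE 0.08, adjusted p 2.42e-12, edgeR), and the activator E2F3 fell by 0.64. E2F7, the closest relative of E2F8, rose from 3.94 and 3.92 to 7.57 and 7.39 RPKM (0.93, SE 0.09, adjusted p 2.70e-09, edgeR), against the fall of E2F8. The pocket protein genes RBL2 (0.72, adjusted p 6.78e-07) and RB1 (0.35, adjusted p 0.00480, edgeR) also rose; the call of RB1 ended without siCBX3 replicate 2 (adjusted p 0.127) and on the deposited RPKM plus 1 (0.147) or plus 0.1 (0.138), and RBL2 shares 18.2% of its exon bases. LIN52, of the DREAM repressor complex, fell by 0.82.

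Kinases and regulators of G1/S fell in 10 of 21 tested cases (47.6%) and rose in 1 (4.76%), with a median of -0.18. All genes tested had shares of 24.0% lower and 24.4% higher. CDKN2A and CDKN2B, which encode CDK4/6 inhibitors, were too low to be tested. Of the CDK inhibitor genes that were tested, CDKN1A fell (-0.57, adjusted p 2.34e-05, edgeR). CDKN2D also fell, to 60.9% and 39.1% of its siNC mean in the siCBX3 libraries (adjusted p 0.000243, edgeR). CDKN1B, CDKN1C and CDKN2C were not called. Cyclin D1, CCND1, fell from 203 and 172 to 68.0 and 66.6 RPKM (-1.48, adjusted p 1.81e-13, edgeR), and MYC (-1.13), CCND2 (-0.68) and CCNA2 (-0.59) fell too. CDK6 rose (0.42, adjusted p 0.000212, edgeR), a call that ended on the deposited RPKM plus 1 (adjusted p 0.0531). The cyclin E partner CDK2 was at 22.0 and 20.8 RPKM in siNC and 24.5 and 19.6 in siCBX3 (0.05, adjusted p 0.705, edgeR), and its value was negative with library totals (-0.03) and without siCBX3 replicate 1 (-0.12).

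Ubiquitin ligase genes of G1/S and licensing had 6 of 15 lower and 1 higher (median -0.07). For comparison, 24.0% of all genes tested were called lower and 24.4% higher, and their median log2 fold change was -0.01. SKP2, which targets the CDK inhibitor p27 and CDT1, fell from 5.16 and 5.38 to 2.00 and 2.48 RPKM (-1.23, adjusted p 5.09e-09, edgeR), and CUL4B rose (0.71, adjusted p 6.79e-08, edgeR). In the replication checkpoint list 9 of 16 fell (56.2%) and 1 rose (6.25%), with a median of -0.31. RAD9A (-1.28) and RAD18 (-0.80) led the falls, and ETAA1 was higher (0.32, adjusted p 0.0115, edgeR). ETAA1 was not called with library totals (adjusted p 0.0593) or on the deposited RPKM plus 1 (0.104) or plus 0.1 (0.0983). Without siCBX3 replicate 2 its value was 0.24. In the list of replication-coupled chromatin assembly, which also holds histone and DNA modifiers, 7 of 10 fell (70.0%) and 0 rose (median -0.40). UHRF1 was at -0.75 and HAT1 at -0.77. The 3 genes not called were CHAF1A (-0.07), NASP (-0.09) and ASF1A (0.11).

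Nucleotide synthesis genes beside TYMS and the reductase fell in 21 of 29 cases (72.4%) and rose in 1 (3.45%), with a median of -0.34. All genes tested had shares of 24.0% lower and 24.4% higher. CTPS1 (-0.94), DUT, which removes dUTP (-1.03), and TK1, the S phase thymidine kinase (-1.01), fell, with adjusted p between 5.80e-10 and 7.14e-07 (edgeR). TK2, the mitochondrial thymidine kinase, rose from 2.10 and 2.02 to 3.44 and 3.40 RPKM (0.73, SE 0.10, adjusted p 1.13e-06, edgeR) and shares 25.0% of its exon bases. Mitotic genes, which act later in the cycle, were lower as well: 29 of 30 fell (96.7%) and 0 rose, with a median of -0.64. CDC20 was at -0.98, KIF20A at -0.90, ANLN at -0.87 and PRC1 at -0.83. Whether the mitotic and the replication genes differ in their change was not tested.

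**Figure D5:**
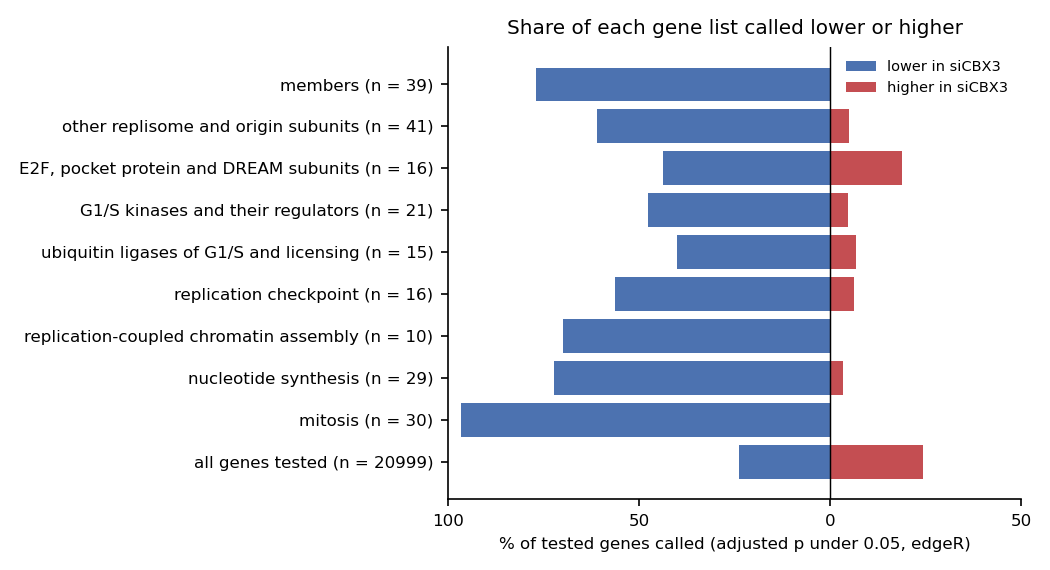
Share of tested genes called lower (left, blue) or higher (right, red) in siCBX3 at an adjusted p under 0.05 in edgeR, for the 39 members, 8 further lists and all genes tested, with n for each. The members stand at 76.9% lower and 0% higher, against 24.0% and 24.4% over all genes.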

How the data were processed

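The submitters' processing notes name STAR 2.5.3a, Trimmomatic 0.36, Subread 1.5.1 with featureCounts, and build GRCh38. The sources used here give neither the annotation release nor the settings for strand and shared reads. The authors deposited unnormalised counts for each gene, and RPKM values that equal those counts scaled by exon length and library total within a relative difference of 3.79e-07. The count model was edgeR 4.0.16 under R 4.3.3: filterByExpr (minimum count 10, minimum total 15), TMM factors, and a quasi-likelihood model with group as the only term over all 4 libraries (2 residual and 22 prior degrees of freedom). The SE of a log2 fold change is its size divided by the square root of the F statistic. RPKM printed are TMM-scaled counts per kilobase. Intervals and errors cover counting and library spread only. DESeq2 1.42.0 and limma 3.58.1 (voom, and log2 of the deposited RPKM plus 1 or 0.1) served as alternatives. The fit was tested on simulated data with 2 libraries per group and 50 changed genes per size of change. It recovered 16 at 1.25-fold, 32 at 1.5-fold, 46 at 2-fold and 50 at 4-fold, with 4 false calls among 20996 genes. Far fewer genes changed in the simulation than the 5041 lower and 5132 higher called in the data. The changed genes were also drawn above a floor of mean level. Its recovery and false calls therefore need not hold for the data. A gene that was not called may still have changed by a small amount. Same-numbered replicates were not paired by any label. Members, gene lists and the named-gene rule (each member; per list the 4 smallest adjusted p, the called genes of the rarer direction and subunits of members' complexes, not all of which are reported here) were chosen with earlier results of these data known. Promoters are the first RefSeq start listed per gene. Plots used Python 3.11.15 and matplotlib 3.10.9.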

Additional observations from a re-analysis of the deposited data

How the results depend on the processing

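Under 14 alternatives 27 of the 30 called members stayed called lower in each; the other 3 were ORC1, MCM7 and RRM1. Between 28 and 34 members were called lower and 0 higher, with 28 to 31 when 1 library was left out. The members' median log2 fold change of -0.54 moved to -0.62 with library totals, -0.58 with upper-quartile scaling and -0.60 on RPKM plus 0.1, while that of all genes moved from -0.01 to -0.09, -0.05 and -0.08. The members' median lay between -0.55 and -0.52 with 1 library left out. Over all genes, 5041 lower and 5132 higher became 5917 and 4243 when scaled by library totals, 5626 and 4657 when scaled by the upper quartile, and 5013 and 3584 on RPKM plus 1. Of the 24 members without shared exon bases 17 were called lower (median -0.47), and of the 15 with shared bases 13 (median -0.55). Whether these 2 groups differ was not tested. Among the members and the list genes named in the text, values that changed sign were those of E2F1 (-0.02 with library totals, -0.03 on RPKM plus 1 and on RPKM plus 0.1, and from -0.09 without siCBX3 replicate 2 to 0.19 without siCBX3 replicate 1), CDT1 (from -0.21 without siNC replicate 1 to 0.16 without siNC replicate 2, with 0.03 without siCBX3 replicate 2), RFC2 (from -0.12 without siNC replicate 1 to 0.02 without siNC replicate 2) and CDK2 (-0.03 with library totals, 0.00 from below with upper-quartile scaling, -0.12 without siCBX3 replicate 1 to 0.20 without siCBX3 replicate 2, -0.04 on RPKM plus 1 and plus 0.1); none of these was called under any alternative. Counts of higher genes per list that moved over 1.5 times were small: 2 other replisome genes against 1 on RPKM plus 1 or plus 0.1, 1 G1/S kinase gene against 3 without siNC replicate 1 and 0 on RPKM plus 1, 1 checkpoint gene against 2 without siNC replicate 2 or with the block and 0 with library totals, without siCBX3 replicate 2 and on RPKM, 1 ubiquitin ligase gene against 2 without siNC replicate 1, and 1 nucleotide gene against 2 without siNC replicate 2 or with the block. The cause of these moves was not tested. Deviations of same-numbered libraries had a correlation of 0.0287 over genes, so no strong shared deviation was seen. This cannot exclude that same-numbered libraries were handled together, since noise in weakly counted genes also lowers the correlation. With the replicate number as a block 31 members were lower and 0 higher. Over all genes 5259 were then lower and 5371 higher.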

Other observations

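The median absolute difference between replicates in log2 CPM was 0.073 over the members and 0.149 over all genes tested in siNC, and 0.088 and 0.134 in siCBX3. The widest gaps among the members were those of E2F2 in siNC (0.39) and RFC3 in siCBX3 (0.39). In each group 15 of 39 members were higher in replicate 1.

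Several transcripts that overlap a member on the opposite strand had log2 fold changes close to that of the member, and others did not. RP11-435D7.3, which overlaps CLSPN over 280 bases of its 539, was at -0.95 (SE 0.10, adjusted p 1.82e-08, edgeR), the same as CLSPN. TYMSOS was at -0.98 beside TYMS at -0.88, RP11-33N14.3 at -0.85 beside RFC5 at -0.77, and RRM1-AS1 at -0.20 beside RRM1 at -0.20. INTS8 beside CCNE2 (-0.03), AP4M1 beside MCM7 (0.07) and HSD17B6 beside PRIM1 (0.18) were not called. Some partners were called higher beside a member that fell: TPRA1 beside MCM2 (0.31), EIF4A2 beside RFC4 (0.22) and WSB2 beside RFC5 (0.30). These partners share bases with the members, so their counts are not independent of them.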
